A study of Mus musculus with 30 samples.

Results

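Saa1, Saa2, Saa3, Lcn2 and Lbp are 5 acute-phase genes whose proteins bind lipid, iron carriers or bacterial products, and they were followed here across 30 libraries of mouse intestine. They were chosen by gene symbol, with earlier results of these data known, and make up 5 of the 24746 gene symbols counted in each library. All mice were C3H/HeOuJ. The terminal ileum was sampled in 6-week-old and 10-week-old animals that were germ-free (GF), specific-pathogen-free (SPF) or born germ-free and given SPF microbiota in week 5 (COL). The distal colon of 10-week-old SPF and COL animals was sampled untreated or after 1.5% dextran sulphate sodium (DSS), a polymer in the drinking water that injures the colonic epithelium, for 4 days followed by 2 days of water. Each of the 10 groups had 3 libraries. The series is titled for intestinal macrophages, but the RNA came from whole tissue, so a lower level could come from fewer cells of a type or from less RNA per cell, which bulk libraries cannot tell apart. Neither cage nor litter is labelled, and whether replicate libraries stem from different animals is not stated. The p-values below therefore measure the spread between libraries, which may be technical.

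Serum amyloid A proteins are small apolipoproteins of high-density lipoprotein. Saa1 and Saa2 are made in liver during the acute phase and also in gut epithelium, while Saa3 is known from macrophages, adipocytes and epithelium. Lcn2 (lipocalin 2) binds bacterial siderophores, the molecules with which bacteria take up iron, and is made by neutrophils and stressed epithelium. Lbp (lipopolysaccharide-binding protein) hands bacterial lipopolysaccharide to CD14 and so to the TLR4 receptor, which is functional in the C3H/HeOuJ strain. In the gut this family is known to respond to microbes, to injury and to the cytokines IL-22, IL-6 and IL-1, through the factors STAT3, C/EBP and NF-kB.

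Saa1 (chromosome 7, 46740497 to 46742980, minus strand), Saa2 (chromosome 7, 46751790 to 46754313, plus strand) and Saa3 (chromosome 7, 46711998 to 46715700, minus strand) are neighbours in the GRCm38 annotation (GENCODE vM21). Lcn2 lies on chromosome 2 (32384633 to 32388252, minus strand), as does Lbp (158306493 to 158332852, plus strand). Because Saa1, Saa2 and Saa3 were all higher in newly colonized than in germ-free ileum (below), the 200 bases from -250 to -51 relative to the RefSeq start of the 4 members with a promoter entry are shown 5′ to 3′ from RefSeq, build GRCm38.p6. Capitals mark a C/EBP match (TTGCNNAA on either strand) or a kappa-B match, both described below the sequences.
Saa1, chr7:46743031-46743230, minus strand: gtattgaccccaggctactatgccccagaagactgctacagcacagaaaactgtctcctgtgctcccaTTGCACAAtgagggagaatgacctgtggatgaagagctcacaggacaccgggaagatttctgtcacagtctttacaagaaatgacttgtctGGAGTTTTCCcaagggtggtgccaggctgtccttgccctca
Saa2, chr7:46751583-46751782, plus strand: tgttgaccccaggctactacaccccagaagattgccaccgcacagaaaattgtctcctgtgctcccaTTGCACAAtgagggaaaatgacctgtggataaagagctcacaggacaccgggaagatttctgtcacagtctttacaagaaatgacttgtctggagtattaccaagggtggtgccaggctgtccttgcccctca
Saa3, chr7:46715727-46715926, minus strand: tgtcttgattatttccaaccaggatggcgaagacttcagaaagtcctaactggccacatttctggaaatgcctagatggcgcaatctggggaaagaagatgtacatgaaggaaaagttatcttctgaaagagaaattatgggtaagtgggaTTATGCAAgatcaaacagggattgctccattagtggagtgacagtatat
Lcn2, chr2:32387790-32387989, minus strand: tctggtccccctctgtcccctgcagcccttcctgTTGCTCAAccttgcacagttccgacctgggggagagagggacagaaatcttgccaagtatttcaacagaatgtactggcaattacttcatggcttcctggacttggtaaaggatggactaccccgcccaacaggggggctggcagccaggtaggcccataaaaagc
All 4 windows held a C/EBP match, which 8.11% of the 32851 promoter windows of this length held. It lay at -182 to -175 in Saa1, at -183 to -176 in Saa2, at -99 to -92 in Saa3 and at -216 to -209 in Lcn2. Of the 4, the Saa1 window held a kappa-B match, GGAGTTTTCC at -91 to -82, and 7.54% of all windows held one. Saa2 differed from Saa1 within those 10 bases by T165A and C168A, counted from 1 at the first printed base of Saa1 (Saa1's base first), and did not match the motif. A STAT match (TTCNNNGAA on either strand) was in none of the 4 and in 5.76% of all windows. These matches are letters in the reference strain C57BL/6J, not measured binding, and the Lcn2 window lies inside GENCODE's longer Lcn2 gene model.

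Saa1 and Saa2 were near copies in these sequences. Their promoter windows were 93.5% identical over the alignment, with 11 substitutions and 2 gaps, whereas Saa1 and Saa3 were 52.3% identical. Their transcripts, of 609 and 606 bases, were 93.9% identical, and Saa1 and Saa3 64.3%. Reads in this protocol come from the 3′ end of transcripts: in the last 300 bases, 9.56% of 50-base windows of Saa1 occurred unchanged in Saa2 and no window of 100 bases did. How long the reads were and how reads matching both genes were counted is not given in the sources used here, so the split between Saa1 and Saa2 is uncertain, and the split rests on the reference of another mouse strain.

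Libraries held 3830539 to 6791455 reads assigned to genes in colon and 2233837 to 9088573 in ileum, and levels are given as CPM, counts per 1000000 of these reads. The labelled tissue fitted its markers: 8 ileal enterocyte genes summed to 17900 to 45500 CPM in ileum and 42.4 to 305 CPM in colon, and 7 colonocyte genes to 2340 to 10900 CPM in colon and 914 to 1510 CPM in ileum. Of 10 hepatocyte genes, which summed to 51.3 to 211 CPM in colon and 5.43 to 79.4 CPM in ileum, Alb (albumin) was at most 2.87 CPM and 0 in 15 libraries, and Apoa2 was 0 in 28 libraries. Tat, of the same list, was above GF ileum by log2 6.69 in SPF and 5.12 in COL mice at 6 weeks. In COL mice at 10 weeks it was above by 5.84. It was the 1 of 4 tested that rose in each, beside 4.37%, 2.78% and 5.1% of all genes. Both COL calls were lost in 4 of 6 fits without 1 library. In SPF mice at 6 weeks 1 of the 4 fell, beside 3.33% of all genes. Of 5 tested in untreated colon against ileum, 3 rose and 1 fell in SPF mice, and 1 rose and 1 fell in COL mice. Their part in the results of the members was not tested. Of the markers of other cells, 10 macrophage genes summed to 75.9 to 132 CPM in GF ileum, to 104 to 178 CPM in colonized ileum at 6 weeks and to 159 to 246 CPM in colonized ileum at 10 weeks. The 9 adipocyte genes ranged from 102 to 1160 CPM in GF ileum at 6 weeks and from 116 to 1220 CPM at 10 weeks. In colonized ileum they ranged from 56.9 to 135 CPM at 6 weeks and from 107 to 653 CPM at 10 weeks. The 14 neutrophil genes ranged from 5.82 to 15.4 CPM over all 18 ileum libraries. One colon library, SPF DSS replicate 3, stood apart in neutrophil genes, Saa3 and Lcn2, and the main results that rest on it are given with and without it.

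In the ileum, Saa1 and Saa3 were higher in colonized than in GF mice at both ages, and Saa1 differed most. Saa2 and Lbp rose in 3 of the 4 comparisons with GF, and Lcn2 in none. At 6 weeks, 4 of the 5 members rose in SPF against GF (quasi-likelihood test of edgeR, p adjusted by Benjamini-Hochberg over all genes, threshold 0.05 throughout), beside 4.37% of all 13233 genes tested. The same count, 4 of 5, rose in COL against GF at 6 weeks, beside 2.78% of all genes. At 10 weeks 2 of 5 rose in SPF against GF, beside 4.22% of all genes, and 4 of 5 rose in COL against GF, beside 5.1%. The SPF and COL comparisons share the GF libraries of their age. These counts treat Saa1 and Saa2 as separate members, though the split of reads between them is uncertain. The members were chosen with earlier results of these data known, so the counts describe them and do not test enrichment. The median log2 fold change of all genes lay between -0.02 and 0.02 in these 4 comparisons.

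Saa1 was at the edge of detection without microbes and abundant with them. In GF ileum it stood at 5.34, 0.964 and 0.817 CPM at 6 weeks (23, 6 and 6 reads) and at 1.31, 1.4 and 3.49 CPM at 10 weeks (6, 9 and 18 reads). SPF ileum held 2650, 2840 and 587 CPM at 6 weeks and 179, 331 and 384 CPM at 10 weeks, and COL ileum 674, 1770 and 2560 CPM at 6 weeks and 594, 989 and 1900 CPM at 10 weeks. Every colonized library was above every GF library, which in SPF and COL held for 8.08% and 4.96% of all genes at 6 weeks and 9.5% and 15.4% at 10 weeks. The rise in SPF at 6 weeks was 854-fold between group means, a log2 fold change of 10.17 ± 1.11 (SE, n = 3 and 3, edgeR adjusted p = 9.9e-05). In COL mice of that age, about a week after colonization, it was 703-fold (log2 9.92 ± 1.10, edgeR adjusted p = 0.00023). Without GF replicate 1, which held 23 of the 35 GF reads, these log2 values were 11.33 and 11.09 (edgeR adjusted p = 0.00052 and 0.0011). At 10 weeks the rise was 144-fold in SPF (log2 7.23 ± 1.03, edgeR adjusted p = 0.0011) and 562-fold in COL (log2 9.13 ± 1.08, edgeR adjusted p = 0.00017), the latter between 8.55 and 9.71 when 1 library was left out.

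Saa2 followed the same groups at far lower counts. Its calls may not be independent of those of Saa1, because the split of reads between the genes is uncertain. Saa2 held at most 0.141% of the reads of the pair in any colonized group. Whether its reads were Saa1 reads assigned to Saa2 was not tested. Saa2 had no read in any of the 6 GF libraries. SPF ileum at 6 weeks held 29, 35 and 7 reads, or 3.79, 3.85 and 1.01 CPM, and COL ileum held 4, 15 and 9 reads (0.774, 2.96 and 1.18 CPM) at 6 weeks and 4, 7 and 8 reads (0.728, 1.26 and 1.43 CPM) at 10 weeks. The exception was SPF ileum at 10 weeks, with 0, 1 and 0 reads (0, 0.203 and 0 CPM). Set against a floor of 3 reads over the GF group, Saa2 was at least 17.9-fold higher in SPF at 6 weeks (edgeR adjusted p = 0.0016). By the same floor it was at least 9.32-fold higher in COL at 6 weeks (edgeR adjusted p = 0.01) and at least 6.14-fold higher in COL at 10 weeks (edgeR adjusted p = 0.022). SPF against GF at 10 weeks was not called (edgeR adjusted p = 0.63). Both COL calls were thin: at 6 weeks the adjusted p was 0.052 without GF replicate 2, 0.05 without GF replicate 3 (past the threshold before rounding) and 0.056 without COL replicate 2. At 10 weeks it was 0.057 without COL replicate 2 or 3 and 0.062, 0.086 and 0.073 without GF replicates 1, 2 and 3.

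Saa3, the form known from macrophages and adipocytes, rose in all 4 comparisons by a narrower range. Its GF levels were 1.39, 1.45 and 0.681 CPM at 6 weeks and 1.09, 0.779 and 0.194 CPM at 10 weeks. SPF ileum had 24.1, 17.3 and 9.41 CPM at 6 weeks and 8.71, 9.53 and 10.7 CPM at 10 weeks, and COL ileum 6, 7.68 and 9.4 CPM and then 10.4, 10.3 and 23.4 CPM. No colonized library overlapped a GF library, as for 8.08% of all genes in SPF and 4.96% in COL at 6 weeks, and 9.5% and 15.4% at 10 weeks. The rise was 14.4-fold in SPF at 6 weeks (log2 4.09 ± 0.48, edgeR adjusted p = 3.5e-06) and 6.56-fold in COL at 6 weeks (log2 2.99 ± 0.49, edgeR adjusted p = 0.00039). It was 14.1-fold in SPF at 10 weeks (log2 3.81 ± 0.54, edgeR adjusted p = 4.5e-05) and 21.3-fold in COL at 10 weeks (log2 4.39 ± 0.53, edgeR adjusted p = 3.2e-06). Macrophage markers moved with these groups in part. Of 9 tested, 1 rose in SPF and 0 in COL at 6 weeks, and 4 in SPF and 5 in COL at 10 weeks. Of all genes 4.37%, 2.78%, 4.22% and 5.1% rose, in the same order. Of 8 adipocyte markers tested, 0 rose in any of the 4 comparisons. In SPF 1 fell at 6 weeks and 1 at 10 weeks, beside 3.33% and 1.98% of all genes. In COL 0 fell at 6 weeks and 1 at 10 weeks, beside 1.86% and 4.04%. The median log2 fold changes of the adipocyte markers were -5.16 in SPF and -3.9 in COL at 6 weeks, and -0.73 and -0.42 at 10 weeks. The part of either marker list in the Saa3 result was not tested.

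Lbp, the carrier of lipopolysaccharide, was present without microbes and changed less. GF ileum held 4.18, 4.34 and 4.22 CPM at 6 weeks and 2.39, 6.23 and 2.33 CPM at 10 weeks. At 6 weeks SPF libraries held 22.2, 31 and 11 CPM and COL libraries 8.9, 10.6 and 13.6 CPM. All were above GF, as for 8.08% of all genes in SPF and 4.96% in COL. At 10 weeks COL libraries held 9.28, 13.1 and 6.95 CPM, above GF, as for 15.4% of all genes. SPF libraries of that age held 6.35, 8.32 and 3.13 CPM and overlapped GF. Lbp rose 5.04-fold in SPF at 6 weeks (log2 2.56 ± 0.41, edgeR adjusted p = 0.00018). In COL mice it rose 2.6-fold at 6 weeks (log2 1.63 ± 0.42, edgeR adjusted p = 0.02) and 2.68-fold at 10 weeks (log2 1.38 ± 0.42, edgeR adjusted p = 0.039). SPF against GF at 10 weeks gave a log2 difference of 0.75 ± 0.44 (edgeR adjusted p = 0.38). The COL call at 6 weeks was lost without GF replicate 1, 2 or 3 (adjusted p = 0.068, 0.088 and 0.073) and without COL replicate 2 or 3 (0.056 and 0.12). At 10 weeks it was lost without COL replicate 1 or 2 (0.065 and 0.21) and without GF replicate 1 or 3 (0.16 and 0.19), and without GF replicate 2 it was 2.02 on the log2 scale (edgeR adjusted p = 0.013).

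Lcn2, in contrast, stayed low in every ileum group. GF libraries held 0.232, 1.77 and 0.545 CPM at 6 weeks and 0.653, 2.81 and 0.97 CPM at 10 weeks. SPF libraries held 2.48, 2.53 and 1.59 CPM and then 0.148, 2.84 and 1.34 CPM, and COL libraries 0.968, 1.77 and 3.13 CPM and then 1.27, 1.08 and 0.891 CPM. All of these groups overlapped GF at their age. The log2 differences from GF were 1.53 ± 0.81 in SPF and 1.43 ± 0.82 in COL at 6 weeks (edgeR adjusted p = 0.29 and 0.39), and -0.06 ± 0.82 and -0.48 ± 0.83 at 10 weeks (edgeR adjusted p = 0.98 and 0.82).

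**Figure D1:**
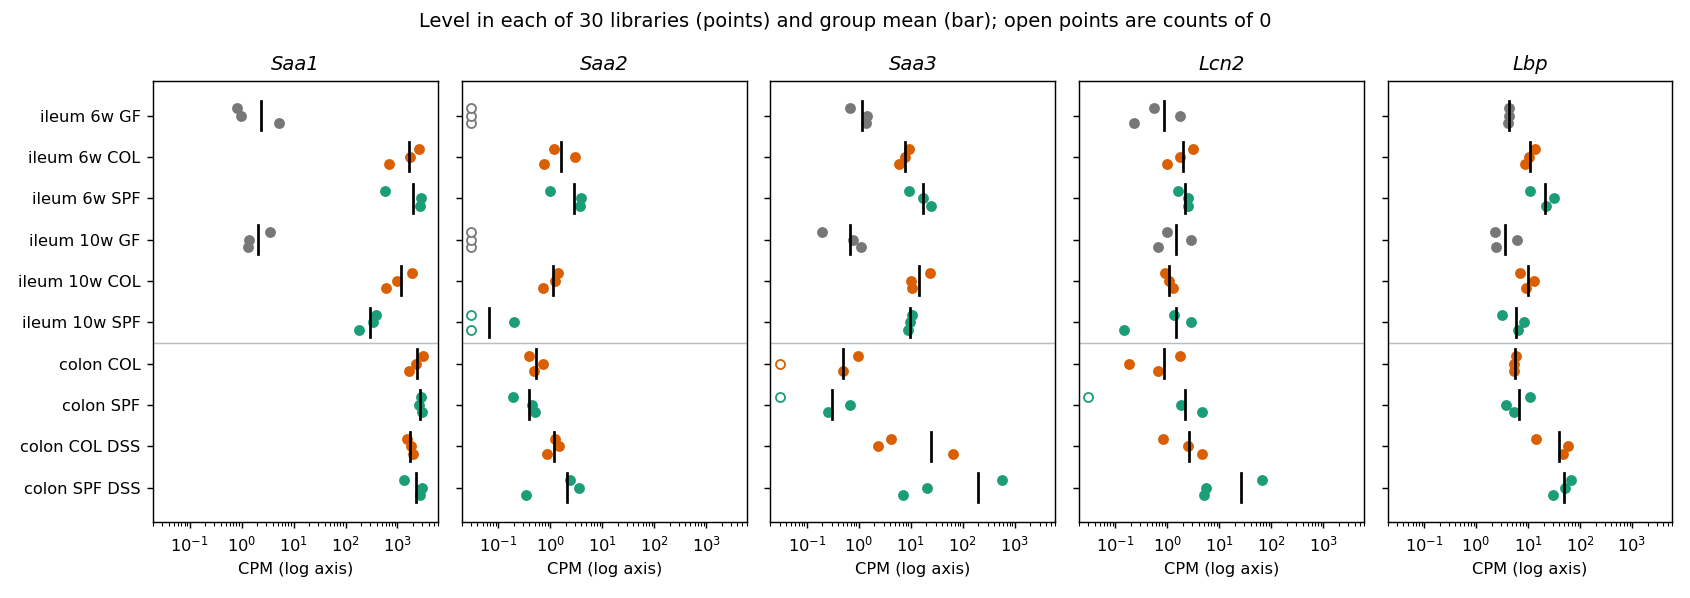
Level of each of the 5 genes in each of the 30 libraries, in CPM on a log axis, by group, with open points for libraries without a read. Saa1 spans 0.817 to 3120 CPM, Saa2 has no read in GF ileum, and Saa3 in SPF colon after DSS runs from 7.14 to 574 CPM.

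Newly and late-colonized ileum was also set against SPF ileum of the same age, which asks whether colonization in week 5 reaches the lifelong level. None of the 5 members was called at either age, beside 0.0982% of all genes called at 6 weeks and 0.0907% at 10 weeks. At 6 weeks Saa3 was lower in COL than in SPF in every library, by 1.10 ± 0.39 on the log2 scale (edgeR adjusted p = 0.46), though the nearest libraries, COL replicate 3 and SPF replicate 3, were at 9.4 and 9.41 CPM. Of all genes, 9.22% showed a lack of overlap in that direction. At 10 weeks every COL library was above every SPF library in Saa1, by 3.9-fold between group means (log2 1.90 ± 0.72, edgeR adjusted p = 0.52), and Saa2 likewise, with 19 reads against 1 (ratio 15.9, 95% counting interval 2.53 to 660, edgeR adjusted p = 0.43). Of all genes, 5.22% were higher without overlap in that comparison. For the others the log2 difference of COL from SPF at 6 weeks was -0.25 ± 0.69 for Saa1, -0.82 ± 0.75 for Saa2, -0.10 ± 0.75 for Lcn2 and -0.93 ± 0.38 for Lbp, and at 10 weeks 0.58 ± 0.40 for Saa3, -0.42 ± 0.87 for Lcn2 and 0.63 ± 0.41 for Lbp.

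Age was the other axis in ileum. In SPF mice 2 of the 5 members fell from 6 to 10 weeks, beside 0.793% of all genes. Saa2 went from 71 reads over 3 libraries to 1 (ratio 0.0239, 95% counting interval 0.000597 to 0.137, edgeR adjusted p = 0.039), and Lbp fell to 0.277 of its level (log2 -1.98 ± 0.41, edgeR adjusted p = 0.021). Saa1 was lower in every 10-week library (log2 -2.92 ± 0.75), as 5.61% of all genes were, but did not pass (edgeR adjusted p = 0.074); DESeq2 gave 0.011 and edgeR 0.031 without SPF replicate 3 of 6 weeks. The Saa2 call was lost without SPF replicate 1 or 3 of 10 weeks (adjusted p = 0.11 and 0.063) and without replicate 1 or 2 of 6 weeks (0.17 and 0.16). Without replicate 2 of 10 weeks, which held the 1 read, it held (edgeR adjusted p = 0.035). The Lbp call was lost without replicate 1 of 10 weeks (0.063), without replicate 1 or 2 of 6 weeks (0.11 and 0.15) and in a fit of the compared groups alone (0.09).

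The other members and groups did not pass with age. In SPF mice Saa3 differed by -0.99 ± 0.40 on the log2 scale (edgeR adjusted p = 0.18) and Lcn2 by -0.79 ± 0.81 (edgeR adjusted p = 0.64). In GF mice 0 of 5 were called, beside 0.0302% of all genes, with Saa1 at 0.02 ± 1.32 and Lbp at -0.17 ± 0.44 on the log2 scale (edgeR adjusted p = 1 for each). In COL mice, where age and time since colonization cannot be told apart, 0 of 5 were called, beside 2.53% of all genes. There Saa1 differed by -0.77 ± 0.70 (edgeR adjusted p = 0.63) and Saa3 by 0.69 ± 0.40 (edgeR adjusted p = 0.38), with every 10-week library of Saa3 above every 6-week library, as for 21.1% of all genes.

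The change of the microbial effect with age was tested directly, and 0 members passed in either status, beside 0.0151% of all genes for SPF and 0.144% for COL. The effect of SPF over GF was lower at 10 than at 6 weeks by 2.94 ± 1.57 for Saa1 (edgeR adjusted p = 0.63) and by 1.81 ± 0.60 for Lbp (edgeR adjusted p = 0.42) on the log2 scale. For Saa3 the difference was -0.28 ± 0.83 (edgeR adjusted p = 0.95). The effect of COL over GF differed by -0.79 ± 1.54 for Saa1, by 1.40 ± 0.76 for Saa3 and by -0.25 ± 0.59 for Lbp (edgeR adjusted p = 0.91, 0.53 and 0.93). For Saa2, at 0 in all GF libraries, no such difference could be fitted.

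In the colon, where DSS injury was compared with untreated tissue, the members behaved differently from one another. Lbp rose after DSS in both SPF and COL mice, Saa3 and Lcn2 rose in SPF mice with 1 library far above the others, and Saa1 was abundant with and without DSS. Of the 4 members tested, 3 rose in SPF colon, beside 12.2% of all 12855 genes, and 1 rose in COL colon, beside 4.14%. Saa2 had too few reads in colon to enter this test. The median log2 fold change of all genes was -0.03 in SPF and 0.01 in COL.

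Lbp was the steadiest. Untreated colon held 5.48, 3.79 and 10.7 CPM in SPF and 5.32, 5.32 and 5.98 CPM in COL mice. After DSS the SPF libraries held 30.8, 52 and 65.9 CPM and the COL libraries 46.1, 59.9 and 14.2 CPM, all above the untreated libraries, as were 14.5% of all genes in SPF and 14.2% in COL mice. The rise was 7.44-fold in SPF (log2 2.94 ± 0.47, edgeR adjusted p = 0.00077) and 7.24-fold in COL (log2 2.90 ± 0.47, edgeR adjusted p = 0.0018). Without SPF DSS replicate 3 the SPF value was 2.70 ± 0.48 (edgeR adjusted p = 0.0029). Of other markers, 8 fibroblast genes summed to 1660 to 2310 CPM in untreated colon and 699 to 1120 CPM after DSS, 7 colonocyte genes to 7180 to 10900 CPM and 2340 to 5860 CPM, and their part in the Lbp result was not tested. The DSS effect of COL minus that of SPF on Lbp was -0.03 ± 0.66 on the log2 scale (edgeR adjusted p = 1).

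Saa3 was nearly absent from untreated colon, at 0.261, 0.669 and 0 CPM in SPF and 0.498, 0 and 0.964 CPM in COL mice. After DSS it was at 7.14, 20.5 and 574 CPM in SPF and at 65.7, 2.32 and 4.12 CPM in COL libraries. All DSS libraries were above the untreated ones, as for 14.5% of all genes in SPF and 14.2% in COL mice. The highest of each DSS group was far above the other libraries of its group. The SPF difference was 9.32 ± 2.58 on the log2 scale (edgeR adjusted p = 0.03). Without SPF DSS replicate 3 it was 5.50 ± 1.68 and no longer passed (edgeR adjusted p = 0.054), nor did it without untreated SPF replicate 1, 2 or 3 (log2 9.27, 10.55 and 8.66, adjusted p = 0.099, 0.085 and 0.093) or in a fit of the compared groups alone (0.063). The COL difference, 49.3-fold between group means, was 5.63 ± 2.35 (edgeR adjusted p = 0.19, DESeq2 adjusted p = 0.028), and 2.8 without COL DSS replicate 1 (edgeR adjusted p = 0.61). The effects in COL and SPF differed by -3.69 ± 4.75 (edgeR adjusted p = 0.86).

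Lcn2, widely known as a marker of gut inflammation, followed that same library. Untreated SPF colon held 4.7, 1.79 and 0 CPM and untreated COL colon 0.665, 0.183 and 1.73 CPM. After DSS the SPF libraries held 5.05, 5.5 and 67.3 CPM and the COL libraries 4.56, 2.53 and 0.825 CPM. The SPF groups did not overlap, as for 14.5% of all genes that were higher after DSS. The highest untreated SPF library, at 4.7 CPM, came close to the lowest treated one, and the COL groups overlapped. The rise in SPF was 12-fold between group means (log2 3.68 ± 1.22, edgeR adjusted p = 0.049). It was lost without SPF DSS replicate 3 (log2 1.41 ± 0.93, edgeR adjusted p = 0.33), without untreated SPF replicate 1, 2 or 3 (log2 4.95, 3.56 and 3.02, adjusted p = 0.059, 0.13 and 0.12), with no filter on low counts (0.12), with the replicate block (log2 3.14, 0.14) and in a fit of the compared groups alone (0.12). In COL mice the difference was 1.71 ± 1.41 (edgeR adjusted p = 0.52), and the effects of COL and SPF differed by -1.97 ± 1.95 (edgeR adjusted p = 0.81).

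Markers of neutrophils, a known source of Lcn2, were highest in the SPF DSS library that was highest in Saa3 and Lcn2. In COL mice the same held only with Ly6g left out of the sum. The 13 neutrophil genes other than Ly6g, which held most reads of the list in colon, summed to 2.23 to 7.9 CPM in untreated colon, to 15, 85.3 and 1250 CPM in SPF DSS replicates 1 to 3 and to 35, 14.6 and 14.8 CPM in COL DSS replicates 1 to 3. Leaving Ly6g out was decided once the values were known. The library highest in this sum was the highest of its group in Saa3 and in Lcn2, in SPF and in COL mice alike. With Ly6g included, the 14 genes summed to 1460, 2110 and 4230 CPM in the SPF DSS libraries and to 1140, 1430 and 1210 CPM in the COL DSS libraries, so that in COL mice the library highest in Saa3 and Lcn2 was then the lowest of its group. Of 5 neutrophil genes tested, 4 rose in SPF and 2 in COL colon, beside 12.2% and 4.14% of all genes. Ly6g was among them in both. In COL colon the other was Ltf, and the Ly6g call there was lost in 5 of 6 fits without 1 library. There S100a8 and S100a9 differed by 4.47 and 7.25 on the log2 scale and were not called, though they were under some other settings. In SPF colon S100a8 rose by 9.02 and S100a9, its partner in calprotectin, by 10.1 on the log2 scale. Both calls were lost without untreated SPF replicate 1, 2 or 3. Without SPF DSS replicate 3 the rises were 6.06 ± 1.20 and 6.74 ± 1.02 (edgeR adjusted p = 0.0076 and 0.0015). Their part in the Saa3 and Lcn2 results was not tested.

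**Figure D2:**
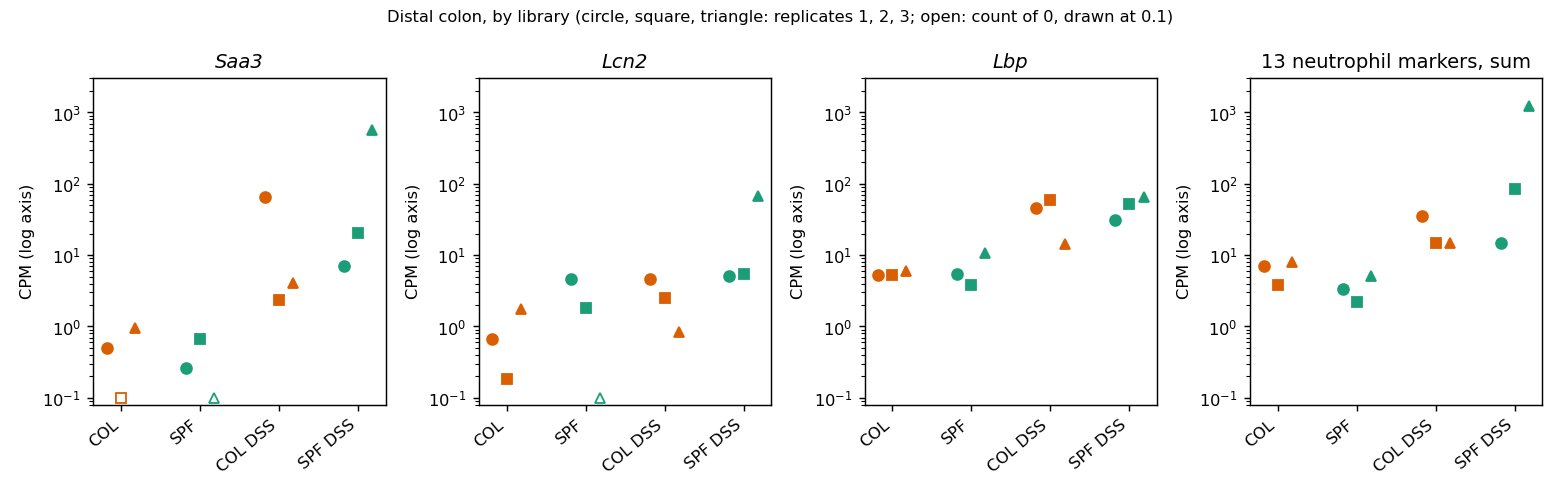
Saa3, Lcn2, Lbp and the sum of 13 neutrophil markers without Ly6g in each of the 12 colon libraries, in CPM on a log axis. Ly6g was left out of the sum once the values were known. SPF DSS replicate 3 is highest in all 4 panels, at 574, 67.3, 65.9 and 1250 CPM, and stands apart from the other libraries in 3 of them but not in Lbp.

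Saa1 did not pass in either DSS comparison. SPF colon held 2900, 2570 and 2790 CPM untreated and 2670, 2940 and 1310 CPM after DSS, and COL colon 1690, 2220 and 3120 CPM and then 1960, 1810 and 1500 CPM. The groups overlapped in both. The log2 difference was -0.18 ± 0.30 in SPF (edgeR adjusted p = 0.68) and -0.35 ± 0.30 in COL (edgeR adjusted p = 0.54), and the effects differed by -0.16 ± 0.43 (edgeR adjusted p = 0.94). Saa2, untested, was at 0.522, 0.446 and 0.195 CPM in SPF and 0.498, 0.734 and 0.386 CPM in COL colon. After DSS it was at 0.348, 3.6 and 2.36 CPM in SPF, which overlapped, and at 0.883, 1.48 and 1.24 CPM in COL, which did not. Of all genes tested, 14.2% were higher without overlap in COL mice.

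Late-colonized and SPF colon were also compared within each treatment, and no member passed. In untreated colon 0% of all genes were called, with 988 at an unadjusted p under 0.05 by edgeR, and the log2 differences were -0.26 ± 0.30 for Saa1, 0.62 ± 4.31 for Saa3, -1.29 ± 1.5 for Lcn2 and -0.31 ± 0.49 for Lbp. After DSS 0.00778% of all genes were called. There Lcn2 was lower in every COL than in every SPF library (log2 -3.25 ± 1.16, edgeR adjusted p = 0.55), as 4.93% of all genes were, and the difference was -3.07 ± 1.62 for Saa3 (edgeR adjusted p = 0.68) and -0.34 ± 0.41 for Lbp (edgeR adjusted p = 0.87). Without SPF DSS replicate 3 it was -1.02 for Lcn2 (edgeR adjusted p = 0.97) and 0.75 for Saa3 (edgeR adjusted p = 0.98). No member passed the test of a difference between the DSS effects either, nor did any gene (0%), with 1122 genes at an unadjusted p under 0.05. With no true difference, a share near 0.05 of the 12855 genes tested would lie under that p, here and in untreated colon.

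**Figure D3:**
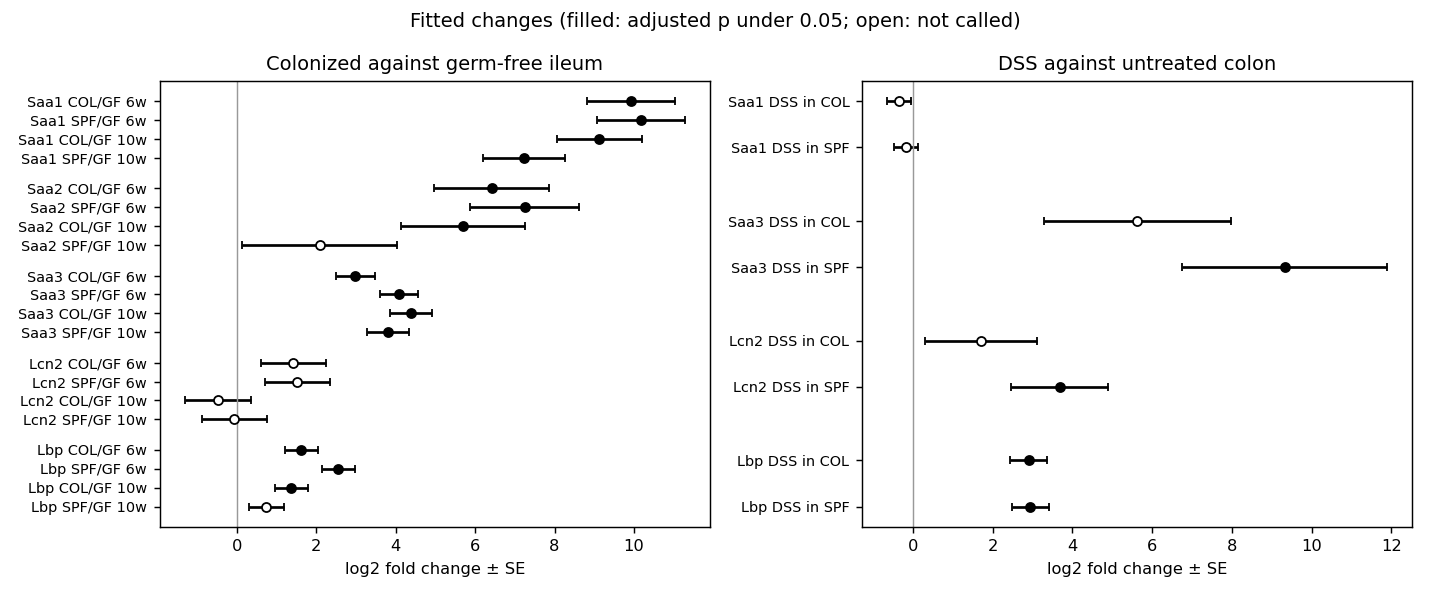
Log2 fold change with its standard error in the 4 comparisons of colonized with GF ileum and in both DSS comparisons of colon. Values are from edgeR's quasi-likelihood fit, filled where the adjusted p was under 0.05. Saa2, untested in colon, is left out of the DSS panel. Saa1 and Saa3 are filled in all 4 comparisons of colonized with GF ileum, and Lbp is filled in both DSS comparisons.

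The share of Saa2 among the reads of the Saa1 and Saa2 pair was small in every colonized group. The intervals below pool the reads of 3 libraries, and differences of the share between groups were not tested. Over the 3 libraries of SPF ileum at 6 weeks it was 0.141% (95% exact interval 0.11 to 0.178, counting error only, as for all shares here). COL ileum had 0.0873% (0.058 to 0.126) at 6 weeks and 0.0976% (0.0588 to 0.152) at 10 weeks, and SPF ileum at 10 weeks had 0.027% (0.000684 to 0.15). Untreated colon had 0.0135% (0.00439 to 0.0315) in SPF and 0.0234% (0.0107 to 0.0444) in COL mice, and colon after DSS 0.0851% (0.0578 to 0.121) and 0.0652% (0.0392 to 0.102). The interval of SPF ileum at 6 weeks lay above those of both untreated colon groups. In SPF colon after DSS the libraries differed, at 0.013, 0.122 and 0.18%, and replicate 1 lay among the untreated SPF libraries (0.018, 0.0173 and 0.00697%). The share of that group was 0.138% (0.0921 to 0.197) without replicate 1 and 0.0574% (0.0296 to 0.1) without replicate 2, the latter overlapping the untreated interval. COL ileum at 6 weeks had 0.0563% without replicate 2 and 0.152% without replicate 3. SPF ileum at 10 weeks rests on 1 Saa2 read, and without replicate 2 on none. In GF ileum no Saa2 read stood beside 35 Saa1 reads at 6 weeks and 33 at 10 weeks, and a floor of 3 reads allows a share of up to 8.57% and 9.09%, against upper ends of the exact interval of 10% and 10.6%.

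**Figure D4:**
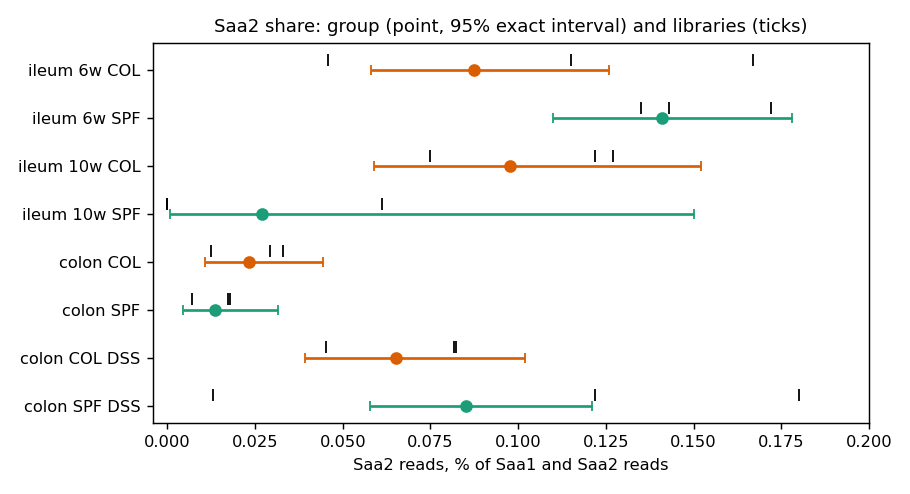
Share of Saa2 among the summed Saa1 and Saa2 reads of each colonized group in percent, with the 95% exact binomial interval for counting error and a tick for each library. SPF ileum at 6 weeks is highest, at 0.141%, and untreated SPF colon lowest, at 0.0135%.

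Across the 10 groups Saa1 means ran from colon to GF ileum. The order was untreated SPF colon (2760 ± 169 CPM, SD, n = 3 here and below), untreated COL colon (2340 ± 719), SPF colon after DSS (2310 ± 872), SPF ileum at 6 weeks (2030 ± 1250), COL colon after DSS (1750 ± 232), COL ileum at 6 weeks (1670 ± 947) and at 10 weeks (1160 ± 672), SPF ileum at 10 weeks (298 ± 106), and GF ileum at 6 weeks (2.37 ± 2.57) and at 10 weeks (2.07 ± 1.24). Neighbours in this order overlapped, except that COL ileum at 10 weeks was above SPF ileum at 10 weeks, and that in turn above GF ileum. Saa3 had its highest mean in SPF colon after DSS (201 ± 324 CPM), then in COL colon after DSS (24 ± 36.1) and SPF ileum at 6 weeks (16.9 ± 7.33), and its lowest in untreated SPF colon (0.31 ± 0.337). Lbp was highest in colon after DSS (49.5 ± 17.7 CPM in SPF, 40.1 ± 23.4 in COL), followed by SPF ileum at 6 weeks (21.4 ± 10), and lowest in GF ileum at 10 weeks (3.65 ± 2.24). Lcn2 was highest in SPF colon after DSS (25.9 ± 35.8 CPM), the one group whose libraries did not overlap the next.

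Colon and ileum were compared in untreated mice of 10 weeks, and 1 member was called in each kind of mouse, a share near that of all genes. In SPF mice Saa1 was higher in colon than in ileum by 9.25-fold (log2 3.06 ± 0.63, edgeR adjusted p = 0.00068), the 1 member of 5 that rose, beside 15.3% of all 13807 genes tested. In COL mice Saa1 differed by 0.93 ± 0.59 (edgeR adjusted p = 0.27). Saa3 was lower in colon in every library of both kinds of mice, and was the 1 member called in COL mice (log2 -4.95 ± 1.70, edgeR adjusted p = 0.036), beside 14.3% of all genes that fell and 20% lower without overlap. In SPF mice it was -5.00 ± 2.03 (edgeR adjusted p = 0.065), with 15.8% of all genes lower without overlap. The COL call was lost without colon COL replicate 1, 2 or 3 (log2 -4.96, -4.41 and -5.81, adjusted p = 0.1, 0.12 and 0.073) and without ileum COL replicate 3 (0.1), while in SPF mice Saa3 was called by DESeq2 (0.0011) and in a fit of the compared groups alone (0.00061). Lbp differed by 0.02 ± 0.49 in SPF and by -0.90 ± 0.47 in COL mice (edgeR adjusted p = 0.17 in COL, 0.049 in a fit of the compared groups alone). Lcn2 differed by 0.45 ± 1.15 and -0.42 ± 1.21, and Saa2 by 2.00 ± 1.40 (5 reads against 1 in SPF mice) and -1.12 ± 0.86.

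The pathway around the members was described with 6 lists of 96 genes in all, given by their counts and medians. In ileum the list with the highest share called was that of epithelial genes known to be induced by IL-22 or bacteria. Of its 15 tested genes, 11 rose in SPF and 11 in COL against GF at 6 weeks (median log2 fold change 2.48 and 2.5, all genes -0.02). At 10 weeks 8 and 9 rose (1.65 and 1.75). Of all genes, 4.37% rose in SPF and 2.78% in COL at 6 weeks, and 4.22% and 5.1% at 10 weeks. Reg3b, a C-type lectin with antimicrobial action, rose by 3.41 ± 0.43 in SPF and 3.75 ± 0.43 in COL at 6 weeks on the log2 scale, and by 2.49 ± 0.41 and 3 ± 0.42 at 10 weeks. Nos2, the inducible nitric oxide synthase, rose by 6.23 ± 0.61, 5.55 ± 0.60, 6.54 ± 0.64 and 6.29 ± 0.63 in the same order. Reg4 in SPF at 6 weeks (lost without SPF replicate 1) and Reg3a in both comparisons at 10 weeks (lost without GF replicate 1, 2 or 3 or SPF replicate 1 or 3, and without GF replicate 1 or COL replicate 1 or 2) were the members of that list that fell, beside 3.33%, 1.98% and 4.04% of all genes in SPF at 6 weeks, SPF at 10 weeks and COL at 10 weeks. Leaving out 1 library at a time left 10 to 11 rising at 6 weeks, 6 to 8 in SPF and 7 to 10 in COL mice at 10 weeks.

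Lipopolysaccharide sensing and NF-kB genes moved in small part. Of 18 tested, 4 rose in SPF and 1 in COL against GF at 6 weeks, and 2 and 3 at 10 weeks. The medians were 0.16, 0.16, 0.42 and 0.44, and 4.37%, 2.78%, 4.22% and 5.1% of all genes rose, in the same order. Nfkbiz, an atypical inhibitor of the NF-kB family that is itself induced by it, rose in all 4 comparisons. Its level was 31.1 ± 6.3 CPM in GF ileum at 6 weeks against 163 ± 49.7 in SPF (log2 2.60 ± 0.26, edgeR adjusted p = 9.2e-07), and 33 ± 4.53 CPM in GF at 10 weeks against 189 ± 9.31 in COL (log2 2.52 ± 0.26, edgeR adjusted p = 8.1e-07). Nfkbia, the classical inhibitor, rose in SPF at both ages (1.18 ± 0.19 and 1.03 ± 0.19) and in COL at 10 weeks (0.80 ± 0.19). Tlr2, the receptor of bacterial lipoproteins, rose in SPF at 6 weeks (1.80 ± 0.46) and in COL at 10 weeks (2.00 ± 0.46), and Cd14, which takes over lipopolysaccharide from Lbp, in SPF at 6 weeks (0.79 ± 0.21). The Nfkbiz calls held without any 1 library. Lost were Nfkbia in COL without COL replicate 2 or GF replicate 2 or 3, Tlr2 in SPF without GF or SPF replicate 1, and Cd14 without GF replicate 2 or 3 or SPF replicate 1 or 2. The count at 6 weeks in SPF was 2 without SPF replicate 1, and that at 10 weeks in COL 2 without COL replicate 2 or GF replicate 3.

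Il22 and Il6 were near or below detection in ileum. Il22 had 2 reads over COL ileum at 6 weeks, 3 over COL ileum at 10 weeks and none in the other groups, and Il6 had at most 4 reads in a group. Of 2 cytokines tested, Tnf rose in 3 of the 4 comparisons with GF, by 3.13 ± 0.93 in SPF at 6 weeks (lost when any 1 library of the comparison other than SPF replicate 3 was left out), and by 4.56 ± 0.91 in SPF and 4.23 ± 0.91 in COL at 10 weeks. Of 15 cytokine receptors and STAT3 or C/EBP factors, 3 rose in SPF at 6 weeks and 3 in COL at 10 weeks, with 0 rising in the other comparisons with GF. Of all genes, 4.37% rose in SPF and 2.78% in COL at 6 weeks, and 4.22% and 5.1% at 10 weeks. Il17rc, a subunit of the IL-17 receptor, fell in COL against GF at 6 weeks (-0.68 ± 0.18), beside 1.86% of all genes, and not without GF replicate 1 or 2 or COL replicate 2 or 3. Socs3, the feedback inhibitor of STAT3 signalling, and Cebpd, a C/EBP factor, were in both sets, at 2.27 ± 0.52 and 1.55 ± 0.32 in SPF and 1.88 ± 0.53 and 1.79 ± 0.33 in COL mice. The counts of 3 fell to 1 in SPF without GF replicate 2 or 3 or SPF replicate 1 or 2, and in COL without GF replicate 1, 2 or 3 or COL replicate 2 or 3.

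Other acute-phase proteins and the partners of the members moved little in ileum. Of 7 other acute-phase genes tested out of 20, 1 rose in SPF at 6 weeks, beside 4.37% of all genes. In COL at 10 weeks 1 rose and 1 fell, beside 5.1% and 4.04%, and 0 were called in the other comparisons with GF. The one that fell was Cfb (-0.48 ± 0.15), and that call was lost when any 1 library of the comparison other than COL replicate 3 was left out. C4b, a complement component, was the one that rose, by 1.28 ± 0.40 and 1.76 ± 0.40, and the first of these calls was lost when any 1 library of the comparison other than GF replicate 3 was left out. Of 7 tested receptors and carriers, Apoa1, the main apolipoprotein of high-density lipoprotein, fell in SPF at 6 weeks (-0.92 ± 0.21) and in COL at 10 weeks (-1.03 ± 0.21), the former not without GF replicate 1. Of all genes, 3.33% and 4.04% fell in these comparisons. P2rx7, an ATP receptor reported to respond to serum amyloid A, rose at 10 weeks in SPF (1.95 ± 0.32) and COL mice (1.71 ± 0.32), beside 4.22% and 5.1% of all genes.

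In colon after DSS more genes of the same lists passed in SPF than in COL mice. The same held for all genes, of which 12.2% rose in SPF and 4.14% in COL mice. Gene by gene, none of the list genes passed the test of a difference between the DSS effects of COL and SPF mice. Of 7 other acute-phase genes 5 rose in SPF (median log2 fold change 2.19) and 0 in COL (0.73): haptoglobin Hp by 3.94 ± 1.26, the protease inhibitors Serpina3n by 3.05 ± 1.01 and Serpina3m by 6.00 ± 1.5, and the complement genes C3 by 2.19 ± 0.45 and Cfb by 0.96 ± 0.27. Without SPF DSS replicate 3, 2 of 8 rose in SPF, C3 among them (1.48 ± 0.35), while Hp was at 2.01 ± 1.20 and Serpina3n at 1.51 ± 0.78. Without that library 7.54% of all genes rose, in place of 12.2%. Serpina3n, at 5.57, 17.1 and 78.6 CPM in SPF DSS replicates 1 to 3, was highest in the same library as Saa3. Its call was lost when any 1 library of the comparison other than SPF DSS replicate 1 was left out, that of Hp without SPF DSS replicate 3 or untreated SPF replicate 2 or 3, that of Cfb without SPF DSS replicate 3 or untreated SPF replicate 1 or 2, and that of Serpina3m without SPF DSS replicate 3.

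Of all genes 12.2% rose in SPF and 4.14% in COL colon after DSS. Of 18 lipopolysaccharide and NF-kB genes, 5 rose in SPF (median 0.41) and 1 in COL (0.39). They were Tlr4 (0.98 ± 0.28), the adaptor Myd88 (1.02 ± 0.21), Rel (1.62 ± 0.52), Nfkbia (1.15 ± 0.30) and Nfkbiz (1.35 ± 0.24), and in COL Cd14 (1.69 ± 0.44), which was lost when any 1 library of the comparison other than COL DSS replicate 1 was left out. Without SPF DSS replicate 3 or untreated SPF replicate 2, 2 rose in SPF, and without the former these were Myd88 and Nfkbiz. The Tlr4 call was also lost without SPF DSS replicate 2 or untreated SPF replicate 1, and that of Rel without SPF DSS replicate 1 or untreated SPF replicate 1. Tnf rose in both, from 2.61, 2.23 and 0.973 to 15, 15.7 and 18.2 CPM in SPF (log2 3.15 ± 0.50, edgeR adjusted p = 0.00062) and by 3.77 ± 0.57 in COL mice (edgeR adjusted p = 0.00078). Il1b rose in SPF, to 5.92, 11.4 and 189 CPM (log2 6.69 ± 1.51), and by 3.75 ± 0.70 without SPF DSS replicate 3, but not without untreated SPF replicate 1 or 3. Of the 3 cytokines tested, 2 rose in SPF, but 1 without untreated SPF replicate 3, and 1 in COL.

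Socs3 rose in both DSS comparisons (3.60 ± 0.62 in SPF, 3.08 ± 0.60 in COL), with Cebpb (1.30 ± 0.45) and Cebpd (0.77 ± 0.24) in SPF and Osmr, the oncostatin M receptor (1.37 ± 0.38), in COL, so that 3 and 2 of 15 receptors and factors rose. The SPF count was 1 without SPF DSS replicate 2 or 3 or untreated SPF replicate 1 or 2, and the COL count 0 without untreated COL replicate 1. Osmr was also lost without untreated COL replicate 2 or COL DSS replicate 2 or 3. Among 7 receptors and carriers 4 fell in SPF colon: Slc22a17, a receptor for Lcn2 (-2.90 ± 0.67), Cd36, a scavenger receptor that binds serum amyloid A (-1.76 ± 0.35), the phospholipid transfer protein Pltp (-1.83 ± 0.48), a relative of Lbp, and P2rx7 (-1.12 ± 0.34). Of all genes 11.9% fell in SPF and 3% in COL colon, and 12.2% and 4.14% rose. Fpr2, a formyl peptide receptor that binds serum amyloid A, rose in SPF (3.77), and not without SPF DSS replicate 3 (1.38 ± 0.72) or untreated SPF replicate 3. P2rx7 was lost without SPF DSS replicate 2 or 3 or untreated SPF replicate 3, and Pltp without SPF DSS replicate 2 or untreated SPF replicate 1. In COL colon Cd36 fell (-1.37 ± 0.35), a call lost when any 1 library of the comparison other than COL DSS replicate 2 was left out. Of 14 epithelial genes known to be induced by IL-22 or bacteria, 7 rose and 1 fell in SPF and 6 rose in COL, among them Nos2, Duoxa2, Fut2, Retnlb and Pla2g2a in both. Retnlb in SPF was lost when any 1 library of the comparison other than SPF DSS replicate 3 was left out, and Nos2 in COL without untreated COL replicate 1.

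The genes whose pattern was most like each member were ranked by Pearson correlation of log2 CPM, over 18 ileum libraries (9164 candidate genes) and 12 colon libraries (9449). These values describe libraries that share groups and depth and carry no test. In ileum the closest to Saa1 were Reg3b (r = 0.98, and 0.88 within groups), Dmbt1, Reg3g and B3gnt7 (0.97 each) and Zbp1 (0.96). The closest to Saa3 were Prdm1 (0.97), Ifit1bl1 (0.96), Nos2, Nfkbiz and Tnfaip8l3 (0.94 each). Within groups these 5 values for Saa3 were 0.67, 0.61, 0.28, 0.38 and 0.65. For Lbp the closest were Gpx2-ps1 (0.9) and Gpx2 (0.89), a glutathione peroxidase gene and its near copy. In colon Hopx (0.97) and Ifitm1 (0.96) were closest to Saa3 and Slc5a9 (0.97) to Lbp. Lcn2 had no close pattern in ileum (Fam120a, 0.71). Ranking by Spearman's rho kept 1, 2, 1, 1 and 4 of the 5 genes of Saa1, Saa2, Saa3, Lcn2 and Lbp in ileum, and 2, 3, 2, 2 and 0 in colon. Among the members themselves Saa1 and Saa3 had r = 0.94 in ileum (0.46 within groups) and -0.49 in colon, and Saa3 and Lcn2 had r = 0.85 in colon (0.76 within groups) and 0.3 in ileum.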

How the data were processed

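Total RNA of 30 tissue samples was extracted with Qiazol and made into 3′ tag libraries for Ion Torrent sequencing, per the labels' protocols. The authors deposited 1 table of raw read counts per gene for each library. Per the submitters' processing notes they used Trimmomatic 0.36, FastQC 0.11.5, STAR 2.5.3a, HTSeq and the genome build mm10; HTSeq's version, strand setting and annotation are not given in the sources used here. The 5 summary lines of each file were left out: 44.6 to 54.1% of reads were assigned to genes and 28 to 36.9% were multi-mapped. No 2 libraries of a group agreed within sampling noise (chi-square per degree of freedom 5.29 to 48.3).

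CPM were computed over all assigned reads. Tests used edgeR 4.0.16 (quasi-likelihood, genes filtered by group, TMM, R 4.3.3) on 12 colon libraries, 18 ileum libraries, or all 30 for colon against ileum, with Benjamini-Hochberg adjustment over all genes and a threshold of 0.05. The standard error is the log2 fold change over the square root of F, and 18 comparisons were made, 3 of them differences of effects. Alternatives were DESeq2 1.42.0, its size factors, no filter, the compared groups alone, the replicate block, Saa1 and Saa2 summed, other CPM scalings, and each library left out; those chosen after the values were seen were the neutrophil sum without Ly6g, and the list counts and Saa2 shares with each library left out. The script was tested on simulated counts. Same-numbered libraries deviated together (every r over 0.1: 0.25, 0.19 and 0.16) in SPF against GF ileum at 10 weeks, and the block changed no call there. Intervals and floors of 3 counts cover counting error only. Named genes were the 5 members in every comparison, any gene of the fixed lists, and the 5 genes most like each member. Members and lists were chosen with earlier results of these data known. Promoters were searched with Biopython 1.88.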

Additional observations from a re-analysis of the deposited data

How the results depend on the processing

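Of 966 fold changes of the members under alternatives, 876 kept direction and side of the threshold, 41 lost a call and 6 gained one. The other 43 changed sign or went to 0, all of them uncalled. Of 110 group levels, 5 moved by more than 1 SD. Members called numbered 2 with DESeq2 for DSS in COL colon (1 as reported), 1 in a fit of the compared groups alone for DSS in SPF colon (3) and 0 for SPF ileum with age (2), and 2 with DESeq2 or the compared groups alone for SPF colon against ileum and 2 with the latter for COL colon against ileum (1 each). Leaving out 1 library gave 0 to 3 members for SPF ileum with age, 2 to 3 for COL against GF at 10 weeks, 2 to 4 at 6 weeks, 0 to 1 for COL colon against ileum and 1 to 4 for DSS in SPF colon. The replicate block lost the Lcn2 call for DSS in SPF colon (3.14, adjusted p = 0.14) and changed no other call of a member.

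Signs changed for Saa1 in GF ileum with age, at -0.11 with DESeq2 and -0.04 with the replicate block, and -0.57 to 1.2 without 1 library. Other log2 values that changed sign without 1 library, all uncalled, ranged as follows. With age in GF ileum, Lbp ran from -0.81 to 0.07 and Lcn2 from -0.06 to 1.83. In the change of effects with age, Lbp ran from -0.52 to 0.38 for COL and Saa3 from -0.7 to 0.09 for SPF. Against GF at 10 weeks, Lcn2 ran from -0.83 to 0.37 in COL and -1.47 to 0.79 in SPF. Saa2 in SPF ran from 0 to 2.87 and did not turn negative. Its 0 came without SPF replicate 2, which held its 1 read, and was counted with the changes of sign. For COL against SPF ileum, Lcn2 ran from -1.1 to 0.97 at 10 weeks and -0.68 to 0.24 at 6 weeks, and Saa1 from -0.74 to 0.14 at 6 weeks. For COL against SPF colon, Lbp ran from -0.74 to 0.04 and Saa3 from -5.9 to 0.75 after DSS, and Lbp from -0.59 to 0.23 and Saa3 from -0.2 to 1.86 untreated. In the difference of DSS effects, Lbp ran from -0.57 to 0.35, Lcn2 from -3.23 to 0.29, Saa1 from -0.45 to 0.08 and Saa3 from -6.52 to 0.13, and for DSS in SPF colon Saa1 from -0.39 to 0.11. For colon against ileum, Lcn2 ran from -1.39 to 0.03 in COL, and Lbp from -0.5 to 0.31 and Lcn2 from -0.82 to 1.87 in SPF. The cause of these changes was not tested. Where an arm was left with 2 libraries, the fit pooled their spread with the other groups. Counts of a few reads per library limit Saa2, Lcn2 and, in untreated colon, Saa3.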
